A study of Mus musculus with 6 samples.

Results

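The 8 genes described here encode the sterol-sensing, glucose-sensing and oxysterol-sensing switches of fat synthesis: Srebf1 and Srebf2 (SREBP-1 and SREBP-2), Insig1 and Insig2, Mlxipl (ChREBP) and its partner Mlx, and the liver X receptors Nr1h3 (LXR-alpha) and Nr1h2 (LXR-beta). They were chosen by symbol, as all transcripts whose GENCODE M21 gene name is one of the 8, and are 8 of 23492 genes with reads. All 8 passed the filter on low counts, which kept 9772 genes. The tissue was epididymal white adipose tissue, the fat pad beside the epididymis, of male wild-type C57BL/6N mice aged 20 weeks. Poly-A RNA was read as cDNA molecules, without PCR, by Oxford Nanopore direct cDNA sequencing. The control group (ctrl) held mice 5, 6 and 10, and the cold group held mice 7, 12 and 16, each kept alone at 4 °C for 24 h. Mice were otherwise kept at 22 to 24 °C. Single housing is stated for the cold group, and for ctrl mice it is not recorded. Each mouse is 1 sample, and in bulk tissue fewer cells of a type and less RNA per cell cannot be told apart.

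SREBPs are made as precursors in the membrane of the endoplasmic reticulum. The escort protein SCAP carries them to the Golgi, where proteases free the transcription factor part, and INSIG proteins hold SCAP back when sterols are plentiful. SREBP-1c mainly drives fatty acid synthesis and SREBP-2 cholesterol synthesis and uptake, and Insig1 is itself a classic SREBP target. ChREBP pairs with MLX on carbohydrate response elements and links glucose use to lipogenesis. LXRs bind oxysterols, pair with retinoid X receptors, and are known to raise transcription from the SREBP-1c start.

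SREBP, ChREBP-MLX and LXR-RXR each bind a known kind of DNA element. The bases before the starts that RefSeq lists for GRCm38.p6 were searched for 3 short motifs on both strands. The motifs were an E-box (CACGTG), the core of a sterol element (TCACNCCA) and a direct repeat with a spacing of 4 as LXR-RXR pairs bind (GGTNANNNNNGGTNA). A single E-box is not a whole carbohydrate response element. RefSeq gave 14 windows of 250 bases for the 8 genes, and 6 of them held a motif. Over 32817 windows of all genes, 6.02% held the E-box, 3.67% the sterol core and 0.622% the direct repeat. The share holding any of the 3 was not counted. Because the motifs were chosen after these promoter sequences were seen, the 6 of 14 cannot be read as enrichment. The window before the 1c start of Srebf1, chr11:60210472-60210721 on the minus strand, is shown whole, because it is the lipogenic start that LXR is known to act on. Its capitals mark the direct repeat, read on the other strand, 182 to 168 bases before the start. The other 5 stretches hold a motif in capitals with 20 bases on each side, 5′ to 3′ on the gene's own strand, which is plus for all 5.
Srebf1, 1c start: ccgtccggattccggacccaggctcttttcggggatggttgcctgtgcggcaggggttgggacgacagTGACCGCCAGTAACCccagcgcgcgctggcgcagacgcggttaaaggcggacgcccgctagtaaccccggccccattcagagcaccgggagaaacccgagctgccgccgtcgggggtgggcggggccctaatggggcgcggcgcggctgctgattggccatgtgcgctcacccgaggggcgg
Srebf2, sterol core, chr15:82147087-82147134: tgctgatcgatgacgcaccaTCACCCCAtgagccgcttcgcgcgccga
Mlxipl, downstream start, sterol core, chr5:135106735-135106782: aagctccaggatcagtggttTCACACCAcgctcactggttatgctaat
Mlxipl, upstream start, E-box, chr5:135089772-135089817: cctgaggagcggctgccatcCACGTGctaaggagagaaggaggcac
Insig1, E-box, chr5:28071291-28071336: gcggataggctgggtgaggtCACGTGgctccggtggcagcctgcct
Mlx, E-box, chr11:101087230-101087275: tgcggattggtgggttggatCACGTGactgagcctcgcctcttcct
No 2 matches overlapped. The windows of Insig2, Nr1h2 and Nr1h3 and the other Srebf1 windows, that before the 1a start included, held none of the 3. A match describes letters and is not evidence of binding.

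The libraries held 726283 to 1341592 reads per mouse, and the 8 genes together took 4638 reads. For a gene, 1 read was worth 0.747 to 1.38 CPM (a gene's counts scaled to the sum over all genes). The tissue label held: all 8 mature adipocyte markers had reads, with a summed level of 42523 to 46047 CPM in ctrl and 43072 to 45530 CPM in cold. That sum hid differences in both directions, with 0 of 8 called. Fabp4 and Lep were higher and Cfd and Plin1 lower in every cold mouse than in every ctrl mouse, and the other markers overlapped. Such separation held for 13.7% of all genes. As a sum, markers of epididymal and duct epithelium did not match between the groups, but they did not all rise alike. Their summed level was 7.47 to 22.4 CPM in ctrl and 124 to 394 CPM in cold. Only Epcam, Cldn7, Krt8 and Krt18 were tested, with 4 to 17 reads in all ctrl mice together and 52 to 101 in cold. All 4 were called higher, beside 0.542% of all genes. They passed the filter through the cold mice, so that count was largely set beforehand. Of the others, Lcn5 and Lcn8 had 1 read each and Defb41 had no reads. Adam7 had 12.4, 0 and 1.28 CPM in cold 7, 12 and 16, and Aqp9 had 3 reads in ctrl and 14 in cold. Crisp1 gave 306 CPM of the sum in cold 7, with 222 reads there, 0 in cold 12 and 2 in cold 16. Without Crisp1, left out after its values were seen, the sum was 88.2 CPM in cold 7, 166 in cold 12 and 121 in cold 16, all above the ctrl mice. Markers of macrophages, cells rich in LXR-alpha, summed to 1158 to 1457 CPM in ctrl and 966 to 1630 CPM in cold. The part of epithelium in the results below was not tested.

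None of the 8 genes changed past the threshold after 24 h in the cold. By edgeR's quasi-likelihood test with Benjamini-Hochberg adjustment over all 9772 genes, 0 of 8 had an adjusted p under 0.05, where 64 genes of the whole table (0.655%) did. At an unadjusted p under 0.05 the count was 1 of 8, Insig1, beside 8.43% of all genes. DESeq2 and limma-voom also called 0 of 8. The fitted differences were above 0 for 5 genes and below 0 for 3, with a median log2 fold change (cold minus ctrl) of 0.05 beside 0.01 for all genes tested. Insig1 was also the 1 gene of the 8 whose ctrl and cold levels did not overlap, as held for 13.7% of all genes.

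**Figure D1:**
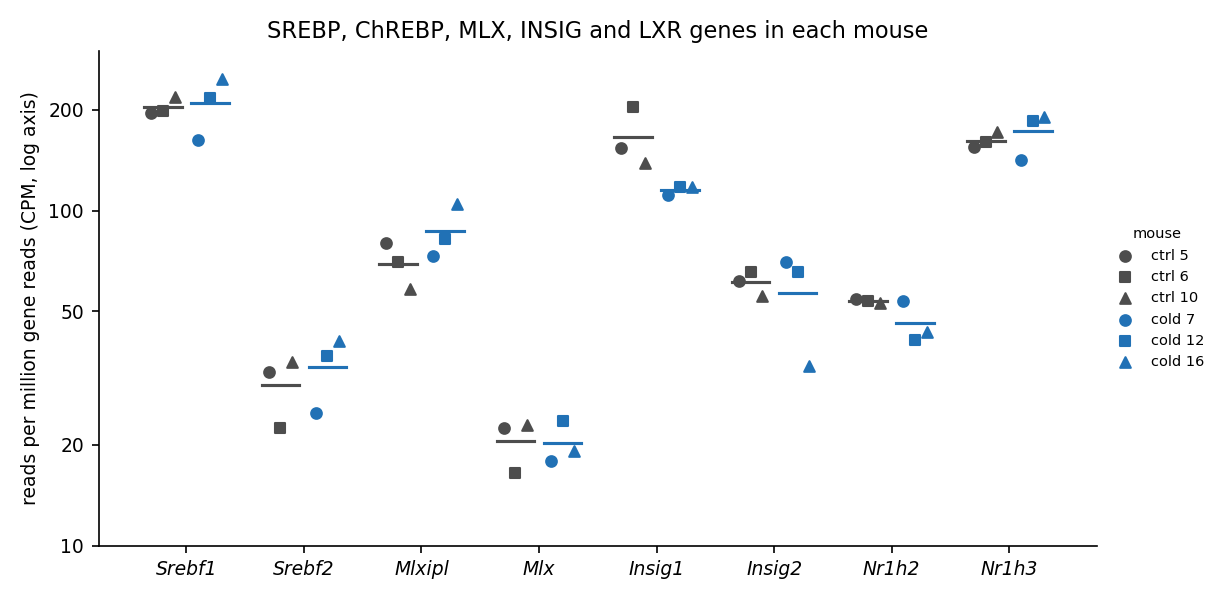
Level of each of the 8 genes in each mouse, in CPM on a log axis; grey symbols are ctrl mice, blue symbols cold mice, and each line is the mean of 3 mice. Insig1 is the gene whose cold mice (112 to 118 CPM) all lie below its ctrl mice (139 to 204 CPM).

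Srebf1 (chromosome 11, 60199089 to 60222581, minus strand) was the most read of the 8 genes. Its level was 195, 199 and 219 CPM in ctrl mice 5, 6 and 10, and 163, 216 and 248 CPM in cold mice 7, 12 and 16. The cold mice held both the lowest and the highest value, so the ctrl range lay inside the cold range. The means were 204 ± 12.8 CPM in ctrl and 209 ± 43.0 CPM in cold (SD, n = 3 each). The log2 fold change was 0.06 ± 0.15 (SE), with an adjusted p of 0.961, and it was -0.06 without cold mouse 16. The last 109 bases of Srebf1 overlap Rai1 on the other strand, which had 158 reads, and whether counting used strand is not given in the sources used here.

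Srebf2, the cholesterol-side SREBP (chromosome 15, 82147181 to 82205379, plus strand), was read far less. It had 33.1, 22.4 and 35.3 CPM in ctrl mice and 24.8, 36.9 and 40.9 CPM in cold mice, in the same order of mice, from 18 to 44 reads per mouse. The groups overlapped, and both ctrl 6 and cold 7 were low. Its log2 fold change was 0.24 ± 0.25 (adjusted p 0.893). Srebf1 had 5.86 to 8.87 reads for each Srebf2 read in the 6 mice. Scaled to transcript length, as CPM per kb of the transcripts the reads were counted under, the ratio was 5.68 to 8.59. An intron of Srebf2 hosts the microRNA gene Mir33, whose product is known to repress cholesterol export genes; it is shown because it is made from the same transcript. Its mature form (chr15:82198127-82198147, plus strand, RefSeq), with the seed, bases 2 to 8, in capitals, is as follows.
miR-33-5p: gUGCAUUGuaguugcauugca
The Mir33 gene itself had 0 reads, and a poly-A cDNA library is not a measurement of mature microRNA.

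Insig1 (chromosome 5, 28071363 to 28078662, plus strand), one of the ER anchors of SCAP, showed the largest fitted difference of the 8. Its level was 154, 204 and 139 CPM in ctrl mice and 112, 117 and 118 CPM in cold mice. All 3 cold mice lay below all 3 ctrl mice, and the cold mice were close to one another while ctrl 6 stood high. The means were 165 ± 34.2 CPM in ctrl and 116 ± 3.34 CPM in cold (SD, n = 3 each). The coefficient of variation was 20.7% in ctrl, against 7.52% from counting error alone, and 2.89% in cold, against 10.1%. The log2 fold change was -0.50 ± 0.16, with an unadjusted p of 0.00507 and an adjusted p of 0.269. Of all genes tested, 1.87% had a smaller p. The adjusted p ranged from 0.0659 to 0.834 over 15 alternative analyses, and without ctrl 6 the log2 fold change was -0.31 with an adjusted p of 0.680. All 887 reads of Insig1 were counted under Insig1-201, which has 5 exons and 2697 bases.

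Insig2, the second SCAP anchor (chromosome 1, 121304353 to 121332589, minus strand), had 61.9, 65.7 and 55.6 CPM in ctrl mice and 70.3, 65.4 and 34.5 CPM in cold mice. Cold 7 was the highest and cold 16 the lowest of the 6, and the other cold mouse lay within the ctrl range. The coefficient of variation in cold was 34.2%, against 15.2% from counting error. The log2 fold change was -0.07 ± 0.22 (adjusted p 0.967), and without cold 16 it was 0.17. Insig1 had 1.52 to 3.26 times the level of Insig2 per kb over the 6 mice, and 1.59 to 3.41 reads for each Insig2 read.

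Mlxipl, which encodes ChREBP (chromosome 5, 135089890 to 135138382, plus strand), had 80.0, 70.2 and 58.2 CPM in ctrl mice and 73.1, 82.2 and 105 CPM in cold mice. The 2 highest values were in cold mice, but cold 7 lay below ctrl 5. The means were 69.5 ± 10.9 CPM in ctrl and 86.7 ± 16.3 CPM in cold (SD, n = 3 each). Its log2 fold change was 0.35 ± 0.18, with an unadjusted p of 0.0635 and an adjusted p of 0.639. Its obligate partner Mlx (chromosome 11, 101087277 to 101092207, plus strand) was the least read of the 8, with 13 to 28 reads per mouse. Mlx had 22.4, 16.4 and 22.9 CPM in ctrl mice and 17.9, 23.5 and 19.2 CPM in cold mice, with ctrl 6 the lowest and cold 12 the highest. The log2 fold change of Mlx was 0.04 ± 0.27 (adjusted p 0.986), and it turned to -0.12 without ctrl 6 and to -0.11 without cold 12. Mlx shares 385 bases at its 3′ end with Psmc3ip on the other strand, which had 26 reads.

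Nr1h3, which encodes LXR-alpha (chromosome 2, 91184061 to 91202834, minus strand), had 155, 160 and 171 CPM in ctrl mice and 142, 185 and 190 CPM in cold mice. Cold 7 was the lowest of the 6 and the other cold mice were the 2 highest, so the groups overlapped. The log2 fold change was 0.12 ± 0.14 (adjusted p 0.912). Nr1h2, which encodes the widely expressed LXR-beta (chromosome 7, 44549616 to 44553951, minus strand), had 54.4, 53.8 and 53.0 CPM in ctrl mice and 53.8, 41.1 and 43.4 CPM in cold mice. Cold 12 and cold 16 lay below all ctrl mice, and cold 7 lay within the ctrl range. The log2 fold change of Nr1h2 was -0.21 ± 0.19 (adjusted p 0.858). The ratio of Nr1h3 to Nr1h2 per kb was 2.70 to 4.61 in the 6 mice, and the groups overlapped in it. In reads, without scaling to length, the ratio was 2.64 to 4.51.

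**Figure D2:**
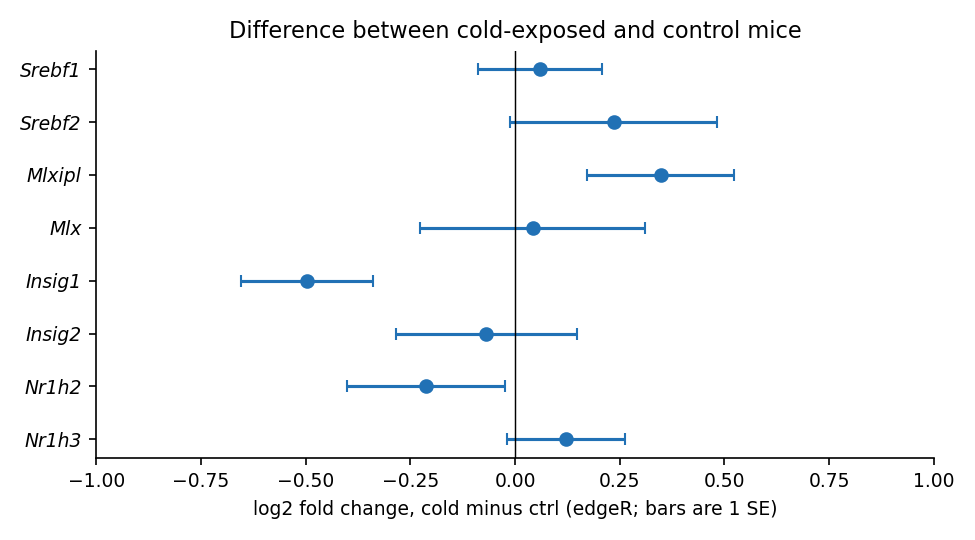
Log2 fold change of each of the 8 genes, cold minus ctrl, from edgeR, with bars of 1 SE. Insig1 lies at -0.50 and Mlxipl at 0.35, and no gene passed the adjusted threshold.

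Over the 6 mice, the order of levels in CPM was Srebf1, Nr1h3, Insig1, Mlxipl, Insig2, Nr1h2, Srebf2 and Mlx. The range of each gene overlapped that of the next, except between Insig1 and Mlxipl and between Nr1h2 and Srebf2. Per kb of transcript, LXR-alpha came first. Each read is of a cDNA molecule, so counts need not grow with length, and whether they did was not tested. Dividing by length lowers the long Srebf1 (mean 4.07 kb) more than Nr1h3 (1.85 kb). Nr1h3 stood at 90.2 ± 10.0 CPM per kb (SD, n = 6), above Insig1 at 52.1 ± 12.9 and Srebf1 at 50.7 ± 7.00, whose ranges overlapped. Nr1h2, Mlxipl and Insig2 followed at 26.3, 24.9 and 22.8 CPM per kb and overlapped in turn, and below them came Mlx at 11.1 and Srebf2 at 8.17. Gaps without overlap lay below Nr1h3, below Srebf1 and below Insig2. In CPM, Srebf1 lay above 92.6% of the genes tested.

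The 1a and 1c starts of Srebf1 give proteins that differ at their first residues, and SREBP-1c is usually described as the main form of liver and fat. The annotation holds both. Srebf1-201 begins at the 1a first exon (chr11:60220453-60220604) and runs through 19 exons to the end of the gene. Srebf1-207 begins at the 1c first exon (chr11:60210336-60210465), 10139 bases downstream. The coding parts of the first exons, from the GENCODE M21 transcripts on the minus strand, are shown because they are all the coding sequence that separates the starts. Capitals mark the start codon, and both are followed by the same exon 2, whose first 30 bases come last.
Srebf1-201, exon 1, chr11:60220453-60220543: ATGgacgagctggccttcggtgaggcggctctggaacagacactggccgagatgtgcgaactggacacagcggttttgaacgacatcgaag
Srebf1-207, exon 1, chr11:60210336-60210354: ATGgattgcacatttgaag
Both, exon 2, chr11:60207228-60207257: acatgctccagctcatcaacaaccaagaca
As annotated, Srebf1-207 stops in its 18th exon and lacks the last exon of Srebf1-201. No annotated transcript joins the 1c first exon to that last exon, and which transcript a full-length 1c read was counted under is not given in the sources used here. The remaining large class, Srebf1-203, has an incomplete 5′ end inside exon 2 and names no start. It also lacks the last 15 bases of exon 4, in capitals below after the 15 bases before them.
Srebf1-201, end of exon 4, chr11:60206173-60206202: ggcacagccgtgcagGCAGGTCCCCTGCAG

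Most Srebf1 reads were counted under Srebf1-201 and Srebf1-203, and few under transcripts with the 1c first exon. Srebf1-207 lacks the last exon, so where 1c reads that reach it were counted is not known. The 1c shares below are therefore shares of counts, not a ratio of 1a to 1c use. Srebf1-201 took 99, 132 and 130 reads in ctrl mice and 51, 128 and 95 reads in cold mice, 50.1% of all Srebf1 reads. Srebf1-203 took 72, 115 and 96 reads in ctrl and 53, 106 and 84 reads in cold, or 41.5%. The 1c first exon group, Srebf1-207 and the short Srebf1-208, took 8, 13 and 21 reads in ctrl and 14, 23 and 13 reads in cold, or 7.26%. Reads are placed by the transcript they were counted under. Whether each covered its first exon is not given in the sources used here. By mouse, the 1c share was 4.37% (Wilson 95% interval 2.23 to 8.39%), 4.89% (2.88 to 8.18%) and 8.47% (5.60 to 12.6%) in ctrl. In cold it was 11.9% (7.20 to 18.9%), 8.91% (6.01 to 13.0%) and 6.70% (3.96 to 11.1%). The intervals cover counting error only. Cold 7 and cold 12 lay above every ctrl mouse and cold 16 between ctrl mice, so the groups overlapped.

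The mean 1c share was 5.91 ± 2.23% in ctrl and 9.16 ± 2.59% in cold (SD, n = 3 each). The exact two-sided permutation test gave p = 0.2, where 0.1 is the smallest that 3 against 3 mice can give. Among only the reads counted under transcripts with the 1a or 1c first exon, the 1c share was 10.1 ± 3.37% in ctrl and 16.3 ± 4.83% in cold. That denominator was chosen after the data were seen, and the exact permutation p was also 0.2. As a level, the 1c first exon group had a log2 fold change of 0.60 ± 0.34 (adjusted p 0.728). The 1a first exon group had one of -0.06 ± 0.18 (adjusted p 0.967). The transcript Srebf1-201 itself, at -0.06 ± 0.19, turned to 0.00394 without ctrl 10 and to 0.11 without cold 7. First exon usage, how a gene's reads split over its first exon groups, was tested with diffSpliceDGE. It could be tested for Srebf1 alone of the 8, with a Simes p of 0.397 (adjusted 1.00). The Srebf1 groups tested included that of Srebf1-203, which names no start, so the test was not of 1a against 1c alone. Of 1279 genes in that test 0 were called, and 13 (1.02%) had an unadjusted p under 0.05.

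**Figure D3:**
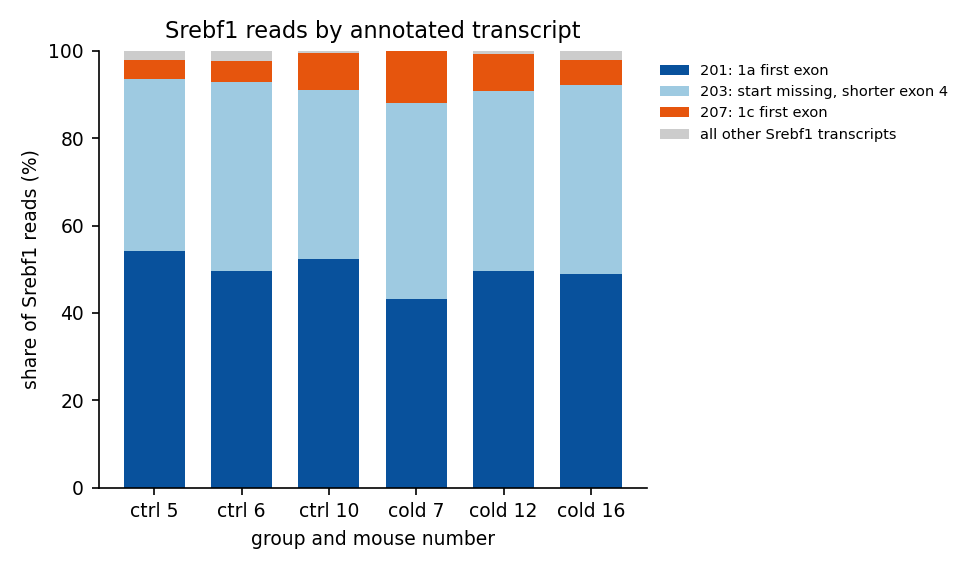
Share of Srebf1 reads counted under each annotated transcript in each mouse; each bar sums to 100%. Srebf1-201 and Srebf1-203 fill most of every bar, and Srebf1-207 with the 1c first exon takes 4.37 to 11.9%.

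ChREBP also has 2 known starts, the upstream of which gives the short and potent ChREBP-beta. Mlxipl-210 is the annotated transcript with the upstream first exon (chr5:135089890-135090060), 17028 bases before the start of Mlxipl-201, and it ends in its 4th exon. It had 0 reads in all 6 mice. That is 0 of 468 Mlxipl reads, which allows a share of up to 0.641%. No annotated transcript joins this first exon to the later exons, so reads of that kind have no transcript of their own, and the annotation does not say whether Mlxipl-210 stands for ChREBP-beta. Transcripts with the downstream first exon took 465 of the 468 reads, and their log2 fold change was 0.34 ± 0.18 (adjusted p 0.707).

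Transcripts annotated as protein-coding took 45.5% of the Mlxipl reads over the 6 mice, beside 93.0% for all protein-coding genes together. Transcripts annotated as targets of nonsense-mediated decay took 37.6% of Mlxipl reads (Wilson 95% interval 33.3 to 42.1%), more than in 97.9% of 7547 coding genes with at least 100 reads, where all coding genes together had 1.86%. They were Mlxipl-206, Mlxipl-203, Mlxipl-207 and Mlxipl-204, with 74, 38, 36 and 28 reads. Each shares 3162 exonic bases with Mlxipl-201 and adds 182, 52, 45 and 33 bases of its own. Each also lacks the last 460 bases of Mlxipl-201, ending at 135137922 where Mlxipl-201 ends at 135138382. How reads were split between Mlxipl-201 and the decay transcripts is not given in the sources used here. The decay share was 33.3, 37.2 and 39.4% in ctrl mice and 34.0, 37.8 and 42.7% in cold mice, and the groups overlapped.

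Retained-intron transcripts, which keep intron sequence and have no annotated coding frame, were a large part of Srebf2, Nr1h3 and Mlxipl. In Srebf2 they took 45.2, 46.7 and 37.5% of the reads in ctrl mice and 33.3, 31.8 and 25.0% in cold mice, from 6 to 15 reads per mouse. In Mlxipl the share, all of it Mlxipl-205, was 22.7, 17.02 and 24.2% in ctrl mice and 16.98, 14.3 and 8.54% in cold mice. Every cold mouse lay below every ctrl mouse in both genes, in Mlxipl by as little as 16.98 against 17.02%. Of 1486 coding genes with at least 100 reads in all and 20 such reads, 2.89% had a share lower in every cold mouse and 5.59% one higher in every cold mouse. In Nr1h3 the share was 15.9, 21.5 and 19.6% in ctrl mice and 16.5, 19.9 and 28.2% in cold mice, with overlap and with cold 16 the highest. Over all coding genes together the share was 3.31 to 4.50%, again highest in cold 16.

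**Figure D4:**
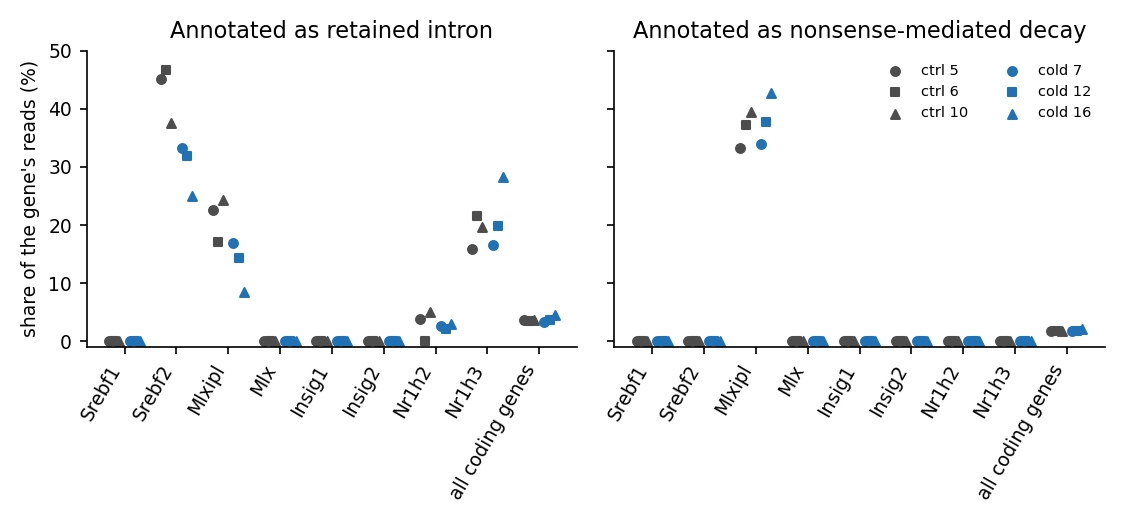
Share of each gene's reads counted under transcripts annotated as retained intron (left) and as nonsense-mediated decay (right), by mouse, with all protein-coding genes together at the far right. Srebf2, Mlxipl and Nr1h3 stand out on the left with 8.54 to 46.7%, and Mlxipl on the right with 33.3 to 42.7%.

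The protein-coding forms that remain were Srebf2-201 with 55.2 ± 2.11% of Srebf2 reads in ctrl and 68.2 ± 3.25% in cold, and Mlxipl-201 with 40.4 ± 4.81% and 46.7 ± 1.86% of Mlxipl reads (SD, n = 3 each). As levels, Srebf2-201 had a log2 fold change of 0.54 ± 0.30 (adjusted p 0.786) and Mlxipl-201 one of 0.55 ± 0.25 (adjusted p 0.679). Nr1h2-201, the main LXR-beta transcript, had 23, 29 and 22 reads in ctrl and 14, 15 and 5 reads in cold, and its log2 fold change was -0.75 ± 0.34 (adjusted p 0.674). Nr1h2-204, with the same coding length of 1338 bases but a later start, had 9, 9 and 12 reads in ctrl and 11, 11 and 13 in cold. Nr1h2-203 lacks 11 bases of Nr1h2-201 and adds none. It had 4, 22 and 17 reads in ctrl and 9, 12 and 6 in cold. How reads were split between Nr1h2-201 and Nr1h2-203 is not given in the sources used here. The 4 coding Nr1h3 transcripts with 89 to 309 reads share 1 first exon group, but not 1 first exon. That of Nr1h3-203 (chr2:91194653-91194885) does not overlap that of Nr1h3-201 (chr2:91194965-91195116), and they are joined through another transcript. Most Mlx reads were split over 3 coding transcripts, Mlx-202 with 52, Mlx-201 with 42 and Mlx-203 with 29.

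No transcript of the 8 genes passed the test. Of 78 annotated transcripts 48 had reads, 25 had at least 20 and 18 were tested, and edgeR called 0 of 18, where it called 0.381% of all 12325 transcripts. At an unadjusted p under 0.05 there were 3 (Insig1-201, Nr1h2-201 and Mlxipl-201), beside 6.87% of all transcripts. Insig1-201 and Nr1h2-201 were the 2 of 18 whose groups did not overlap in CPM, as held for 12.6% of all transcripts. For Nr1h2-201 the gap was as small as 19.28 CPM in cold 7 against 19.39 CPM in ctrl 10. Of 36 annotated first exon groups 21 had reads and 10 were tested, with 0 called, where 0.463% of 10802 groups were called, and 1 (Insig1) had an unadjusted p under 0.05, beside 7.64%. Transcript usage could be tested for 5 of the 8 genes. The lowest of their Simes p-values was 0.169, for Nr1h2, and all adjusted values were 1.00. Over all 2624 genes in that test 0 were called and 25 (0.953%) had an unadjusted p under 0.05. DESeq2 and limma-voom called 0 transcripts of the 8 genes.

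Partners and targets were taken as 7 lists with 102 genes, of which 85 could be tested. Among them 1 gene passed, Thrsp, and it was higher in the cold, where 0.542% of all genes were called higher and 0.113% lower. Lists are described by count and median log2 fold change, to be read beside the median of 0.01 over all genes tested. From each list the genes past the threshold, or else those of the 3 with the smallest p that are reported here, are named.

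The machinery that moves, cuts and degrades SREBP and its anchors gave 0 called of 10 tested, 4 above 0 and 6 below, with a median of -0.09. Lpin1, a phosphatidate phosphatase that also acts on nuclear SREBP, had a log2 fold change of 0.20 ± 0.12 (adjusted p 0.757), and Erlin2, an ER scaffold for degradation, one of -0.30 ± 0.24 (adjusted p 0.836).

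The MLX and MAX network, the basic helix-loop-helix partners around ChREBP, gave 0 called of 8 and a median of -0.05. Mxi1, a MAX-binding repressor, had 27.7, 18.7 and 17.7 CPM in ctrl mice and 27.6, 39.4 and 39.6 CPM in cold mice. Cold 12 and cold 16 lay above all ctrl mice and cold 7 just below ctrl 5, and the log2 fold change was 0.80 ± 0.25 (adjusted p 0.257). Mga and Mxd4, which also bind MAX, stood at -0.41 ± 0.24 and -0.17 ± 0.17.

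LXR partners and coregulators gave 0 called of 13 and a median of 0.01. Rxrg, a retinoid X receptor, had a log2 fold change of 0.77 ± 0.29 (adjusted p 0.413). The coactivator Ncoa3 stood at -0.47 ± 0.20. Ncoa3 had 45.0 to 51.5 CPM in ctrl mice and 31.9 to 38.6 CPM in cold mice without overlap, and did not pass the test (adjusted p 0.534).

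Sterol targets of SREBP-2, the genes of cholesterol synthesis and uptake, gave 0 called of 19 tested among 24, 8 above 0 and 11 below, and a median of -0.01. Fdft1, squalene synthase, had a log2 fold change of -0.42 ± 0.22 and Msmo1, a sterol methyl oxidase, one of -0.36 ± 0.24.

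Lipogenic targets of SREBP-1c and ChREBP gave 1 called of 18, Thrsp, and a median of 0.05, with 10 above 0 and 8 below. Thrsp, the lipogenic factor Spot 14, had 1126, 974 and 1008 CPM in ctrl mice and 1325, 1762 and 1816 CPM in cold mice. All cold mice lay above all ctrl mice, and the log2 fold change was 0.68 ± 0.13 (adjusted p 0.0130). The adjusted p of Thrsp was 0.0760 without ctrl 6, 0.0634 without ctrl 10 and 0.144 without cold 12, and it ranged from 0.000255 to 0.144 over 15 alternatives. Fads2, the delta-6 desaturase, named after its values were seen, had 23.5, 14.9 and 15.0 CPM in ctrl mice and 26.2, 36.9 and 38.3 CPM in cold mice, with a log2 fold change of 0.99 ± 0.26 (adjusted p 0.121). Without cold 7, the list genes called were 5: Thrsp, Fads2 (adjusted p 0.0266), Mid1ip1 (0.0288), Gpd1 (0.0324) and Arl4c (0.00168). Calls over all genes also shifted with 1 mouse left out, from 35 to 199 beside 64 in the main analysis. Cold 7 is also the mouse with the fewest reads and nearly all of the Crisp1 reads, and whether either bears on these counts was not tested. Over their alternatives the adjusted p ranged from 0.0266 to 0.607 for Fads2 and from 0.00083 to 0.445 for Arl4c.

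Glucose-response targets of ChREBP gave 0 called of 6 tested among 11 and a median of 0.26, with 4 above 0 and 2 below. The median was 0.053 without cold 16, 0.048 with no filter, 0.036 with the X1 files alone and 0.017 with coding transcripts alone. Gpd1, glycerol-3-phosphate dehydrogenase, had 429, 410 and 379 CPM in ctrl mice and 419, 497 and 764 CPM in cold mice, with cold 16 far above the others and a log2 fold change of 0.49 ± 0.17 (adjusted p 0.335), or 0.21 without cold 16. Khk, ketohexokinase, stood at 0.67 ± 0.30 (adjusted p 0.550), and at 0.33 without cold 12. Txnip, a strongly glucose-induced gene, stood at -0.36 ± 0.19 (adjusted p 0.662), at -0.13 without ctrl 5 and at -0.62 without ctrl 6.

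LXR targets gave 0 called of 11 tested among 16 and a median of -0.02. Arl4c, a small GTPase gene, had 10.7, 9.71 and 5.30 CPM in ctrl mice and 12.4, 30.2 and 29.4 CPM in cold mice, from 29 reads in the ctrl mice together and 68 in the cold mice. All cold mice lay above all ctrl mice, cold 7 only slightly, and the log2 fold change was 1.55 ± 0.36 (adjusted p 0.0539). Mylip, a ubiquitin ligase gene, stood at 0.54 ± 0.22 (adjusted p 0.469), and Apoe at -0.19 ± 0.14 (adjusted p 0.790). The cholesterol transporter genes Abcg5 and Abcg8 had 0 reads.

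**Figure D5:**
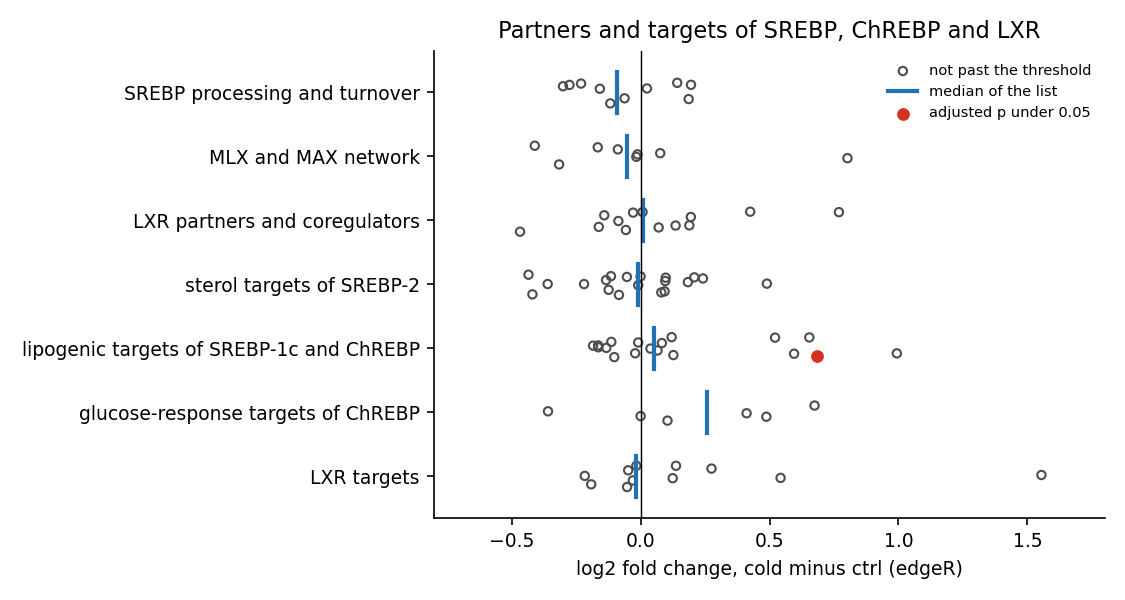
Log2 fold change, cold minus ctrl, of each tested gene in the 7 lists of partners and targets; blue bars are list medians and the filled red point is the 1 gene past the threshold, Thrsp. The medians lie between -0.09 and 0.26.

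The genes whose pattern over the 6 mice was most like that of Srebf1, Mlxipl and Insig1 were found by Pearson r of log2 CPM among 4941 tested genes with at least 20 reads in every library. With 6 mice that share depth and group, these r describe these libraries and carry no test. For Srebf1 they were Ccnd1 (r 0.978), Ranbp3 (0.957) and Pkn2 (0.956). For Mlxipl they were Chd9 (r 0.994), Ankrd40 (0.984) and Ecpas (0.967), and Chd9 spanned 18.5 CPM in ctrl 10 to 74.1 CPM in cold 16. For Insig1 they were Pik3cb (r 0.987), Prelp (0.986) and 6820431F20Rik (0.975). An r above 0.9 was reached by 35, 58 and 32 genes for Srebf1, Mlxipl and Insig1.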

How the data were processed

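The authors deposited whole-number read counts per annotated transcript, 2 files per mouse, 12 in all; the difference between the 2 is not stated and both were summed. The submitters' processing notes name minimap2, a long-read aligner, with no version, and the genome GRCm38. How reads were assigned to transcripts, by which tool and with which strand setting, is not stated in the sources used here. Of 61729 transcript identifiers, 61538 matched GENCODE M21 with the version ignored. Counts were summed per gene, per transcript and per first exon group (same gene, first exons joined where they overlap), and CPM of genes is relative to all reads assigned to genes. Tests used edgeR 4.0.16 in R 4.3.3: TMM, filterByExpr (minimum count 10), the quasi-likelihood test, and Benjamini-Hochberg adjustment over all features of a table at 0.05. Usage was tested with diffSpliceDGE. DESeq2 1.42.0 and limma-voom (limma 3.58.1) were alternatives, with other scalings and filters, each file alone, coding transcripts alone and each mouse left out. Scripts were checked on simulated data.

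The genes and lists were chosen with earlier results of these data known, and the 3 motifs after the promoter sequences were seen. All 8 genes are described, and of their transcripts most of those with at least 20 reads. Insig2-201 (336 reads), Nr1h3-208 (208), Srebf2-205 (63) and Nr1h2-216 (31) enter only through totals and shares of their genes. From each list the genes past the threshold or else the 3 with the smallest p are named, except a few that are not reported here, and for likeness the 3 genes with the highest r. A count of 0 was read with a limit of 3 reads. Mouse numbers do not pair the groups.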

Additional observations from a re-analysis of the deposited data

How the results depend on the processing

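The 8 genes had 0 calls in each of the 15 alternatives run for genes, the 15 for first exon groups, the 14 for transcripts, the 11 for transcript usage and the 12 for first exon usage. Usage was not run with DESeq2, limma-voom or the DESeq2-style size factors. No paired analysis was possible because the groups share no mouse numbers. The list genes called, 1 in the main analysis, were 3 with no filter (Thrsp, Fads2 and Arl4c) and 0 to 5 with 1 mouse left out: 0 without ctrl 6, ctrl 10 or cold 12, and 5 without cold 7. With no filter the calls rose to 371 genes, 260 transcripts and 323 first exon groups. With the X2 files alone they were 38, 26 and 32, with the X1 files alone 30 transcripts, and with 1 mouse left out 35 to 199 genes, 26 to 162 transcripts and 28 to 159 first exon groups. Transcript usage called 1 gene of the whole table with no filter and 1 without cold 7.

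Directions turned for Srebf1, Mlx, Insig2 and Srebf1-201, with turned log2 fold changes from -0.12 to 0.17. With the X2 files alone the log2 fold change was 0.051 for Insig2 and 0.022 for Srebf1-201, and with coding transcripts alone that of Mlx was -0.0016. With 1 mouse left out the log2 fold change ran from -0.061 to 0.19 for Srebf1, -0.12 to 0.14 for Mlx, -0.23 to 0.17 for Insig2, 0.033 to 0.38 for Srebf2, 0.21 to 0.44 for Mlxipl, -0.61 to -0.31 for Insig1, -0.34 to -0.12 for Nr1h2, 0.06 to 0.22 for Nr1h3 and -0.19 to 0.11 for Srebf1-201. The 1c share of Srebf1 differed by 0.79 to 6.34 percentage points over its alternatives, with exact permutation p of 0.2 to 0.6. The cause of these shifts was not tested.

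Depth limits the less read genes: Mlx and Srebf2 had 13 to 44 reads per mouse, and SEs of the 8 genes ran from 0.14 to 0.27 on the log2 scale.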
